A study of Mus musculus with 34 samples.

Results

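The 8 melanocyte lineage genes Mitf, Sox10, Kit, Dct, Tyr, Tyrp1, Pmel and Mlana were examined site by site in the ATAC-seq peak lists of mouse hair follicle stem cells (HFSCs). ATAC-seq maps open chromatin by the cuts of a transposase, and a called peak is a stretch with more cuts than its surroundings. They were chosen by name, as a test of the pigment lineage that neighbours the sorted and cultured cells, and their sites were the peaks whose summit lay in the gene body, up to 50 kb upstream or up to 5 kb downstream in the mm39 annotation. These 8 of 21757 protein-coding genes held 882 of the 1930325 peaks on the 19 autosomes and the sex chromosomes, and 130 of the 252803 regions that formed when peaks of all 34 libraries sharing at least 1 bp were merged. Their windows covered 0.9 Mb, 0.033% of those chromosomes, and held 0.0457% of the peaks.

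Melanocytes and their stem cells share the bulge of the hair follicle with HFSCs. The transcription factor MITF directs the pigment cell programme, SOX10 acts above it in the neural crest lineage, and the receptor KIT carries the signal of stem cell factor that melanocytes need. DCT, TYR and TYRP1 are the enzymes of melanin synthesis, PMEL builds the fibrils on which melanin is laid down, and MLANA is a melanosome membrane protein.

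The in vivo cells were sorted from skin as AnaVI wild type (full anagen, n = 2), CatVII wild type (late catagen, n = 6), CatVII Rxra WT (n = 4) and CatVII Rxra cKO (n = 3). Cultured HFSC lines of the Rxra WT genotype stayed in medium (n = 2) or were fed apoptotic corpses (n = 4), the vehicle-treated controls of the study, or corpses treated with bromoenol lactone (BEL, a phospholipase A2 inhibitor, n = 4). A further pair of Rxra WT cultures was given recombinant AA, LPC and RA (arachidonic acid, lysophosphatidylcholine and retinoic acid, n = 2). The Rxra cKO cultures were kept in medium (n = 2), fed corpses (n = 3) or given the same AA, LPC and RA mixture (n = 2). Rxra WT (Rxra+/+) and Rxra cKO (Rxra fl/fl) cells both carried Sox9-creER and a YFP reporter and both were exposed to tamoxifen or 4-hydroxytamoxifen, so Cre activity and its drug are shared and deletion was limited to cells that had expressed Sox9. The labels give no ages or strains, and the deleted stretch of Rxra was not analysed here, so the lists do not check the genotype. Sorted and cultured cells were measured in bulk, so fewer cells with an open site and less opening per cell cannot be told apart. The in vivo sort left out cells bearing CD117, the KIT protein, together with CD31, CD140a, CD45 and Sca1. From the rest, the study took wild type cells with high CD34 and with ITGA6. For the Rxra WT and Rxra cKO cells YFP stood in place of CD34, so the wild type groups differ from them in this gate. By the study's account, a similar gate served to isolate the cells of the cultured lines. Those cells came from mice in telogen, the resting phase of the hair cycle. The cultured lines were grown on inactivated fibroblast feeders. The corpses were cisplatin-treated HFSCs. The in vivo libraries were barcoded in other batches than the cultured ones, so culture, batch and the hair cycle stage of origin cannot be told apart.

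The libraries held 4144 to 129876 peaks, with 4144 to 5740 in the 4 medium libraries. Member windows held 1 to 3 peaks in each medium library and 4 to 62 in each of the others. The lists give peaks above a threshold and no read counts, so a site without a peak may still be open below that threshold. Lists of equal length were therefore used to compare groups: from each library the peaks with the best -log10 p, as many as the smallest library of the comparison had. Promoters of the 12 listed HFSC markers had a peak in a median of 91.7% of the list in vivo and 91.7% in culture. Those of the 10 basal keratinocyte markers had one in 100% and 100%, whereas the HFSC marker Cd34 had one in 8 in vivo and 0 cultured libraries. Over libraries the HFSC share ranged from 33.3% to 100% in vivo and from 0% to 91.7% in culture. The keratinocyte share ranged from 10% to 100% and from 0% to 100%. In the medium libraries the HFSC share was 0% to 25% and the keratinocyte share 0% to 10%. The titles of the in vivo Rxra libraries number animals, and the study calls its ATAC-seq replicates biological, but the labels do not say which of the other libraries are separate animals or cultures, so part of the spread behind each p-value may be technical. The names stored inside the peak lists give CatVII Rxra cKO replicate 3 the animal tag of replicate 2, against its title. They also mark most libraries as Phago or NonPhago, and in several comparisons the groups differ in this tag. All 4 CatVII Rxra WT libraries are NonPhago whereas Rxra cKO replicate 3 is Phago, and all 4 medium libraries are NonPhago whereas 2 of 4 Rxra WT and 1 of 3 Rxra cKO libraries with corpses are Phago. CatVII wild type replicates 1 to 3 are Phago and replicates 4 to 6 NonPhago, and the AnaVI libraries carry no such tag. The split is the same in Rxra WT with BEL-treated and with control corpses. It is also the same in Rxra cKO with corpses and in CatVII Rxra cKO. The part of this tag in the comparisons was not tested.

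Stretches of 200 bases from the mm39 genome show the places on which the results turn. At starts they are the bases just upstream of the annotated start, and elsewhere they are centred on the median summit. All are written 5′ to 3′ on the gene's strand. Capitals mark the letters CACGTG or CATGTG (the E-box letters read by MITF), ACAAAG or ACAATG (SOX factors) and TGACTCA (AP-1), searched on both strands. The 4 starts comprise the open first Mitf start, the downstream start from which the melanocyte form MITF-M is made, the Dct start, open in vivo, and the Tyr start, which had no peak.
Mitf first start (chr6:97783750-97783949, plus strand): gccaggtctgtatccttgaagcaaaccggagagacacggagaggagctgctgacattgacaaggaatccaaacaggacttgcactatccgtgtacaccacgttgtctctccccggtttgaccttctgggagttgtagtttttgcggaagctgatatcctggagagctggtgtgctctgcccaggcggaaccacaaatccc
Mitf downstream start (chr6:97968553-97968752, plus strand): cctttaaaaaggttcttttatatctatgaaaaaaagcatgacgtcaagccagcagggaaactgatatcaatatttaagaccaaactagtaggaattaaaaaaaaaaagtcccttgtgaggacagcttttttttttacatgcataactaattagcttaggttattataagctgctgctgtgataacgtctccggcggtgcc
Dct start (chr14:118289657-118289856, minus strand): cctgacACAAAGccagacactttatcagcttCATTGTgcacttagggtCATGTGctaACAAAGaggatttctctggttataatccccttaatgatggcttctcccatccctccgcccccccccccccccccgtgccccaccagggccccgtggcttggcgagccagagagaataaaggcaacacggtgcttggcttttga
Tyr start (chr7:87142721-87142920, minus strand): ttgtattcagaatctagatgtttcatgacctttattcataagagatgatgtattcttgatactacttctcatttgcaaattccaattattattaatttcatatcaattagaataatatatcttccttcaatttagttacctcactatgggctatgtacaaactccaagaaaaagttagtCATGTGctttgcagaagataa

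The other stretches are sites away from other genes' starts. They comprise the Mitf intron site with the best rank, neighbouring Mitf intron sites found in vivo (26.2 kb) or in culture (27.1 kb), the Dct site 1045 bp into the gene, and 3 sites upstream of Sox10.
Mitf intron, 146 kb downstream of the first start (chr6:97929846-97930045, plus strand): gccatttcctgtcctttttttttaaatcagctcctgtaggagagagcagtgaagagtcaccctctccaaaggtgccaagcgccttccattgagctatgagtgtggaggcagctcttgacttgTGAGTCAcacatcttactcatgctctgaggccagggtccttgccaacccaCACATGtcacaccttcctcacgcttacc
Mitf intron, 26.2 kb downstream (chr6:97810026-97810225, plus strand): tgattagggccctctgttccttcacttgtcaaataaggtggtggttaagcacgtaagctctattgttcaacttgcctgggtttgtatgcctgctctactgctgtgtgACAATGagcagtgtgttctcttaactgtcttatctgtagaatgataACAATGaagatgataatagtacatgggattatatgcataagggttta
Mitf intron, 27.1 kb downstream (chr6:97810995-97811194, plus strand): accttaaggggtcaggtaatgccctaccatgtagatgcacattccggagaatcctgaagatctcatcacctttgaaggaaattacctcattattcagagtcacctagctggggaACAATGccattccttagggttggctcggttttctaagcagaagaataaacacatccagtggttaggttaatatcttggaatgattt
Dct intron (chr14:118288512-118288711, minus strand): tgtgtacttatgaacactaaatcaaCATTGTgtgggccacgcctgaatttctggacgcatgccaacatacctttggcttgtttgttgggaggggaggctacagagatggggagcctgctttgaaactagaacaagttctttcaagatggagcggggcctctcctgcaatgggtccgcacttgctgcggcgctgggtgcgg
Sox10, 11.8 kb upstream (chr15:79061168-79061367, minus strand): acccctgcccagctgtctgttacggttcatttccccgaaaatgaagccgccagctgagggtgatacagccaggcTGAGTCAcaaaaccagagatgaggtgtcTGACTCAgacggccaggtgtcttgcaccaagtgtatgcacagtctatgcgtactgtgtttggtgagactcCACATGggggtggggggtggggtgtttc
Sox10, 27.9 kb upstream (chr15:79077317-79077516, minus strand): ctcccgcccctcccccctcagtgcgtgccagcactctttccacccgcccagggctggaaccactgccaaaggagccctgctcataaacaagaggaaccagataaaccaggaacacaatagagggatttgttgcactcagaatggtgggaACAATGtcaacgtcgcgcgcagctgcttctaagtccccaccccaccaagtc
Sox10, 30.5 kb upstream (chr15:79079825-79080024, minus strand): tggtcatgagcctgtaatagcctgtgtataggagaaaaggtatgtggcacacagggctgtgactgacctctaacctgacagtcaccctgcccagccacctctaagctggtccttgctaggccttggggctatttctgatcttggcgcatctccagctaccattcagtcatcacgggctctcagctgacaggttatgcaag

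Promoter peaks were found at Mitf and Pmel in most libraries and at Dct mainly in vivo, and were rare or missing at the other 5 genes. A promoter was taken as within 1 kb of an annotated start. Of the 34 libraries, 28 had such a peak at Mitf, 29 at Pmel, 19 at Dct, 2 at Kit, 1 at Tyrp1, and 0 at Sox10, Tyr and Mlana. Over all protein-coding genes the median was 21 libraries, 25.3% of genes had a promoter peak in none and 27.7% had one in 28 or more. In every library of CatVII Rxra WT, 3 of the 8 members had a promoter peak, against 50.2% of all genes. The corresponding count was 3 of 8 against 47.1% in CatVII Rxra cKO, 2 of 8 against 51.4% in Rxra WT with corpses, 3 of 8 against 55.8% in Rxra cKO with corpses, and 2 of 8 against 59.1% in Rxra WT with BEL-treated corpses. The members that met this were Mitf and Pmel in all 5 groups, and Dct in both in vivo groups and in Rxra cKO with corpses. The Pmel peak lay at a start shared with Cdk2, as described below, so the Pmel counts cannot be assigned to Pmel alone.

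Counted per length, the windows of Pmel (241 peaks per 100 kb over all libraries), Mlana (175) and Mitf (151) lay above the median gene window (123). Those of Sox10 (94.9), Dct (87.9), Kit (21.2), Tyrp1 (19.3) and Tyr (0) lay below it. In the Pmel and Mlana windows these counts include peaks at starts of other genes, described below. Windows without a peak in any library, as at Tyr, made up 3.36% of all gene windows. Of the 130 sites, 50 had a peak in at least 5 libraries, and 43 had a peak in 1 library only. Of the 50, 30 were found both in vivo and in culture, 14 in cultured libraries alone and 6 in vivo alone. The shares were 60%, 28% and 12%, near those of the 110307 regions of at least 5 libraries over the genome, of which 63.3% were found in both, 27.6% in culture alone and 9.1% in vivo alone. By position, 3 of the 50 lay at a member's own start, 1 at a start that Pmel shares with Cdk2, 4 at starts of other genes, and 42 away from starts.

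**Figure D1:**
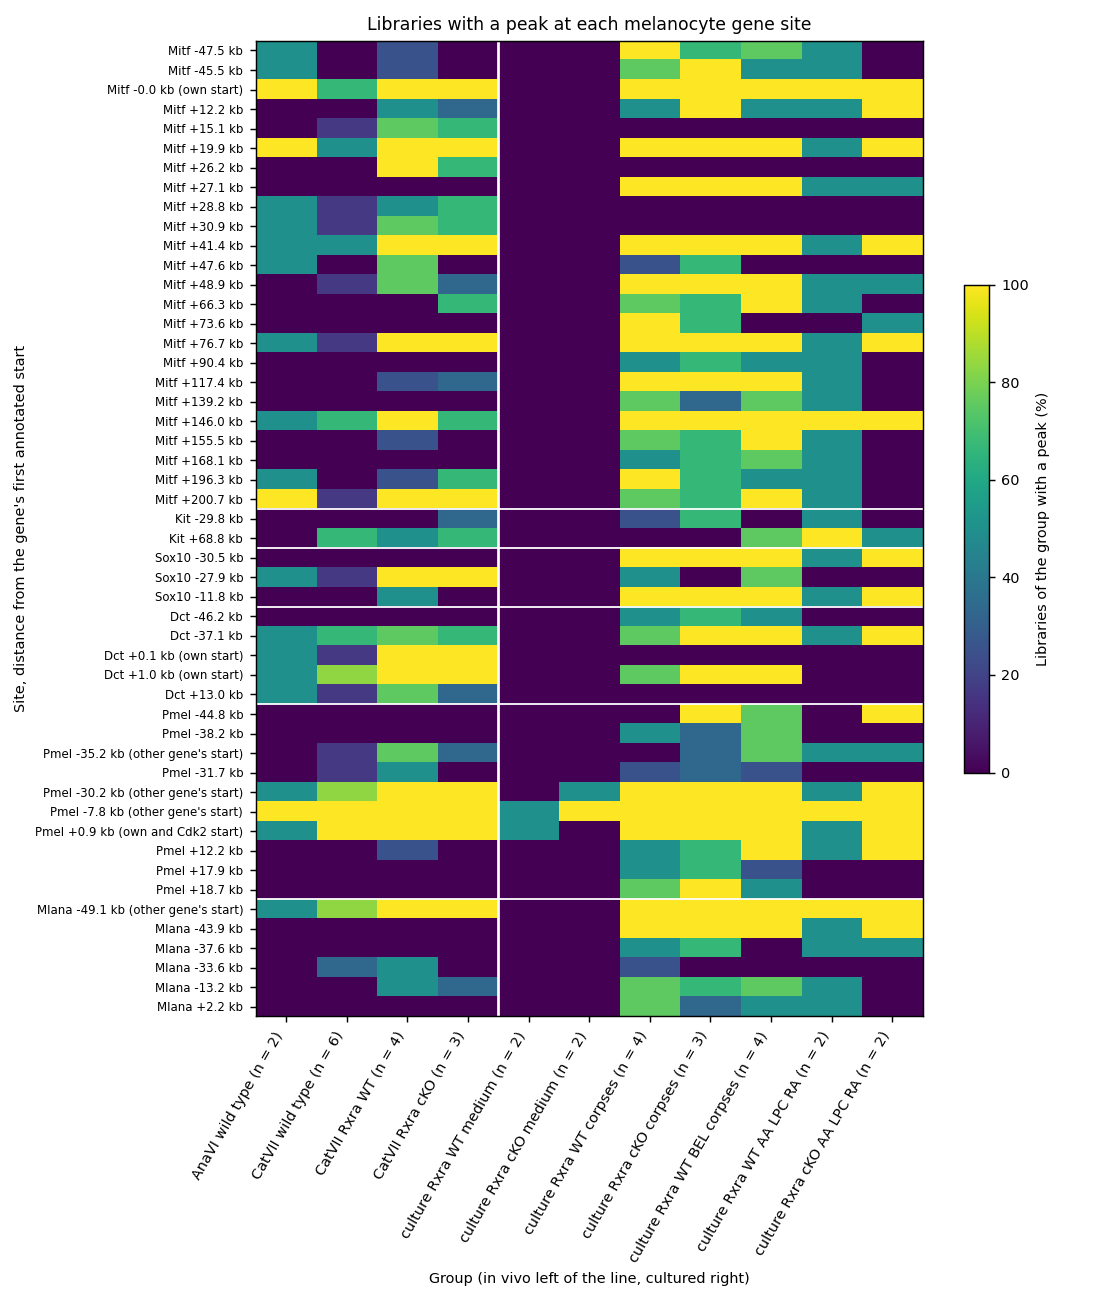
Heat map of the 50 sites found in at least 5 libraries (rows, by gene and distance from the first annotated start in kb) in the 11 groups (columns), coloured by the percentage of the group's libraries with a called peak, all called peaks used. The Mitf first start has peaks in 9 groups and is empty in both medium groups. The Dct start at +0.1 kb has peaks in the 4 in vivo groups alone, in only part of the AnaVI and CatVII wild type libraries. The Dct row at +1.0 kb, also marked as own start, has peaks in cultured groups with corpses or BEL-treated corpses as well.

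Mitf (chr6:97783950-97998323, plus strand) carried 407 of the 882 member peaks, at 52 sites. Its 4 clusters of annotated starts differed: the first (97783950 to 97784019) had a peak within 1 kb in 28 libraries, and those 122810, 133929 and 184803 bp downstream in 0. The last of these, at 97968753 to 97968882, is the start used by the melanocyte form. The peak at the first start was present in 2 of 2 AnaVI, 4 of 6 CatVII wild type, 4 of 4 CatVII Rxra WT and 3 of 3 CatVII Rxra cKO libraries. In culture it was present in every library with corpses, BEL-treated corpses or AA, LPC and RA, and in 0 of 4 with medium. The 2 CatVII wild type libraries without it held 8311 and 13362 peaks, fewer than the other 4 of that group. Its fold enrichment over the local background, as the authors' peak caller gave it, was 13.4, 20.9, 15.3 and 14.7 in CatVII Rxra WT replicates 1 to 4 and 12.6, 15.01 and 30.4 in Rxra cKO replicates 1 to 3. The range of Rxra cKO thus enclosed that of Rxra WT. In culture the fold was 13.8, 19.1, 25.7 and 29.9 in the Rxra WT replicates with corpses, and 21.0, 15.99 and 23.7 in the Rxra cKO replicates, which again overlapped. Fold values of separate lists are not normalised to each other and are given as a description.

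The member site with the best single rank in any library, 118th by -log10 p, lay in a Mitf intron 146 kb downstream of the first start (chr6:97929664-97930376), 12066 bp beyond the third cluster of starts and short of the melanocyte start. It was found in 26 libraries, 11 of 15 in vivo and 15 of 19 cultured. With corpses its fold was 22.7, 22.4, 29.8 and 30.2 in Rxra WT replicates 1 to 4 and 26.7, 21.8 and 25.2 in Rxra cKO replicates 1 to 3. In CatVII Rxra WT it was 10.97, 21.7, 10.1 and 10.3, and in CatVII Rxra cKO 12.4 and 14.2, with no peak in replicate 2. All 7 cultured values were above all 6 in vivo values. Relative to the length of each list, the start of Rab5b in the Pmel window ranked slightly better, at best 0.113% against 0.118%. Since the site was described for its rank in a corpse library, this difference between culture and in vivo cells is a description. None of the 25-base words of this site, or of the other Mitf sites described here, occurred elsewhere in the genome except at the site 73.6 kb downstream, where 30.7% did.

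Mitf had 4 further intron sites that were found in at least 20 libraries: 19.9 kb (26 libraries), 41.4 kb (25), 76.7 kb (23) and 200.65 kb (20) downstream of the first start. Each was present both in vivo and in culture, and each was absent from the 4 medium libraries. The site at 76.7 kb ranged in fold from 5.57 to 24.3 and that at 41.4 kb from 4.67 to 20.6. The 200.65 kb site, 15718 bp beyond the melanocyte start, was found in 10 in vivo and 10 cultured libraries, with a median fold of 8.10 and 6.32.

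Of the 24 Mitf sites in at least 5 libraries, 5 were found in culture alone and 4 in vivo alone, 20.8% and 16.7% beside the genome shares given above. Sites 26.2, 28.8 and 30.9 kb downstream had peaks in 6, 6 and 7 in vivo libraries and in 0 of 19 cultured ones. Among these the site at 27.1 kb had peaks in 13 cultured libraries and in 0 of 15 in vivo. At 26.2 kb the peak was in 4 of 4 CatVII Rxra WT and 2 of 3 CatVII Rxra cKO libraries, with a fold of 7.45, 6.17, 4.23 and 8.96 in Rxra WT replicates 1 to 4. At 27.1 kb it was in every library with corpses or BEL-treated corpses, with a fold of 5.83, 8.81, 13.1 and 13.4 in Rxra WT replicates 1 to 4 with corpses. The site at 15.1 kb was likewise seen in vivo alone (6 libraries), and those at 73.6, 90.4, 139 and 168 kb in culture alone (7, 7, 8 and 8 libraries). The other 9 sites of at least 5 libraries were found both in vivo and in culture. They lay 47.5 kb (12 libraries) and 45.5 kb (11) upstream, and 12.2 kb (13), 47.6 kb (7), 48.9 kb (18), 66.3 kb (12), 117 kb (14), 156 kb (11) and 196 kb (13) downstream of the first start.

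**Figure D2:**
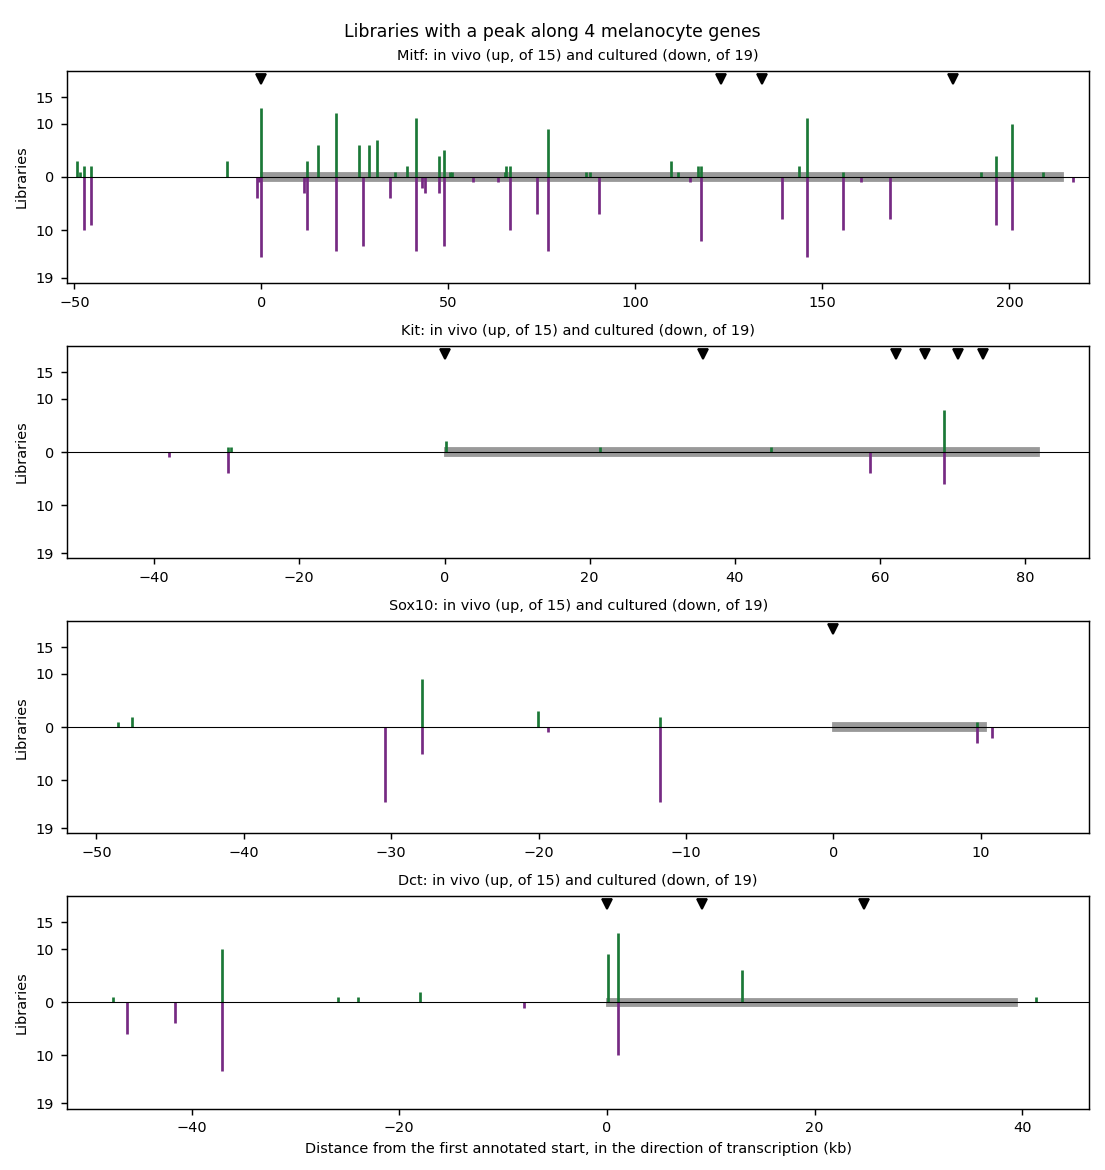
Libraries with a peak (vertical axis, count; in vivo upward of 15, cultured downward of 19) at each site along Mitf, Kit, Sox10 and Dct against the distance from the first annotated start in kb, with the gene body as a grey bar and annotated start clusters as triangles. At Mitf the last triangle, the melanocyte start, has no line beneath it, and at Sox10 the tallest lines, of up to 14 cultured libraries, lie upstream of the start.

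Sox10 (chr15:79039108-79049469, minus strand) had 62 peaks at 9 sites and no peak at its own starts. Of its sites, 3 were found in at least 5 libraries, all upstream and with differing origin. At 11.8 kb upstream (chr15:79060837-79061703), 14 of 19 cultured and 2 of 15 in vivo libraries had a peak. Its fold was 11.6, 15.7, 21.97 and 33.96 in Rxra WT replicates 1 to 4 with corpses and 24.7, 16.1 and 22.8 in the Rxra cKO replicates, against 4.98 and 9.80 in the 2 CatVII Rxra WT libraries that had it. At 30.5 kb upstream, 14 cultured and 0 in vivo libraries had a peak, with folds from 4.16 to 14.2. At 27.9 kb upstream, between them, 9 in vivo and 5 cultured libraries had a peak, among them 4 of 4 CatVII Rxra WT and 3 of 3 CatVII Rxra cKO. There the fold was 5.98, 8.63, 5.89 and 7.32 in the Rxra WT and 8.96, 7.96 and 14.1 in the Rxra cKO replicates, which overlapped.

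Kit (chr5:75735576-75817404, plus strand) had 29 peaks at 8 sites. A peak within 1 kb of its first start was listed in 1 of 6 CatVII wild type and 1 of 3 CatVII Rxra cKO libraries. Its intron site 68.8 kb downstream was listed in 14 libraries, 8 in vivo and 6 cultured, with a fold of up to 16.2 in a CatVII wild type library. All 25-base words of that site occurred elsewhere in the genome, at a median of 343.5 other places, so its reads cannot be assigned with certainty. The other site of at least 5 libraries lay 29.8 kb upstream, in 4 cultured and 1 in vivo.

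Among the enzyme genes, Dct (chr14:118250202-118289656, minus strand) was the only gene with peaks at its start in more than 1 library. The site at the start (chr14:118289397-118290035) was listed in 9 libraries, all in vivo: 1 of 2 AnaVI, 1 of 6 CatVII wild type, 4 of 4 CatVII Rxra WT and 3 of 3 CatVII Rxra cKO, against 0 of 19 cultured. Its fold was 5.81, 5.66, 3.78 and 4.90 in Rxra WT replicates 1 to 4 and 5.63, 11.2 and 11.4 in Rxra cKO replicates 1 to 3, and the ranges overlapped. The neighbouring site 1045 bp into the gene was listed in 13 in vivo and 10 cultured libraries. There the fold in CatVII Rxra WT was 8.73, 16.1, 6.29 and 4.92 and in Rxra cKO 6.86, 7.86 and 11.4. With corpses it was 4.16, 5.23 and 5.83 in 3 of the Rxra WT replicates and 4.44, 4.39 and 3.70 in the Rxra cKO replicates. Since some of its summits fell within 1 kb of the start, this site accounts for the 7 cultured libraries in the Dct promoter count, and within 250 bp of the start the count was 9 libraries. By group, the Dct promoter count within 1 kb was 1 of 2 AnaVI, 4 of 6 CatVII wild type, 4 of 4 CatVII Rxra WT and 3 of 3 CatVII Rxra cKO libraries. In culture it was 1 of 4 Rxra WT and 3 of 3 Rxra cKO libraries with corpses, 3 of 4 with BEL-treated corpses, and 0 of 8 of the others. A site 37.1 kb upstream was listed in 10 in vivo and 13 cultured libraries, a site 13.0 kb downstream in 6 in vivo libraries, and a site 46.2 kb upstream in 6 cultured ones.

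Tyr (chr7:87073979-87142720, minus strand), the rate-limiting enzyme of melanin synthesis, had no peak in its window of 123742 bp in any of the 34 libraries. Tyrp1 (chr4:80752360-80769956, plus strand) had 14 peaks at 9 sites in 7 libraries, none in more than 3 libraries. Its start was listed in CatVII Rxra cKO alone, in 1 of 3 libraries.

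Of the sites near the melanosome genes, those in most libraries lay at starts of other genes. Pmel (chr10:128540064-128556107, plus strand) had 171 peaks at 15 sites. The start of Rab5b, 7.77 kb upstream, was open in 33 libraries, that of Suox in 28 and that of Ikzf4 in 11. The peak at the first Pmel start was listed in 29 libraries, but its median summit lay 26 bp from a Cdk2 start, so the promoters of the 2 genes cannot be told apart. By group it was listed in 1 of 2 AnaVI libraries, in all 13 CatVII libraries and in all 11 with corpses or BEL-treated corpses. It was listed in 1 of 2 Rxra WT and 0 of 2 Rxra cKO libraries in medium, and in 1 of 2 Rxra WT and 2 of 2 Rxra cKO libraries with AA, LPC and RA. The later start of the annotated reference transcript of Pmel had a peak in 0. The other 6 sites of at least 5 libraries in the Pmel window lay away from starts, most of them inside other genes. The sites 44.8 and 38.2 kb upstream lay inside Ikzf4 and that 31.7 kb upstream inside Suox. Those 17.9 and 18.7 kb downstream lay inside Dgka. The sites 44.8 and 38.2 kb upstream (8 and 6 libraries) and 17.9 and 18.7 kb downstream (5 and 8) were found in culture alone. The site 12.2 kb downstream was found in 11 cultured and 1 in vivo library, and that 31.7 kb upstream in 3 of each. Mlana (chr19:29674900-29686034, plus strand) had 116 peaks at 25 sites and none at its own starts. The start of Ermp1, just inside the window at 49.1 kb upstream, was listed in 28 libraries. A site 43.9 kb upstream was listed in 14 libraries, all cultured, with folds from 3.51 to 8.75, and a site 13.2 kb upstream in 9 cultured and 3 in vivo libraries. Sites 37.6 kb upstream (6 libraries) and 2.21 kb downstream (7) were found in culture alone, and a site 33.65 kb upstream in 4 in vivo libraries and 1 cultured.

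**Figure D3:**
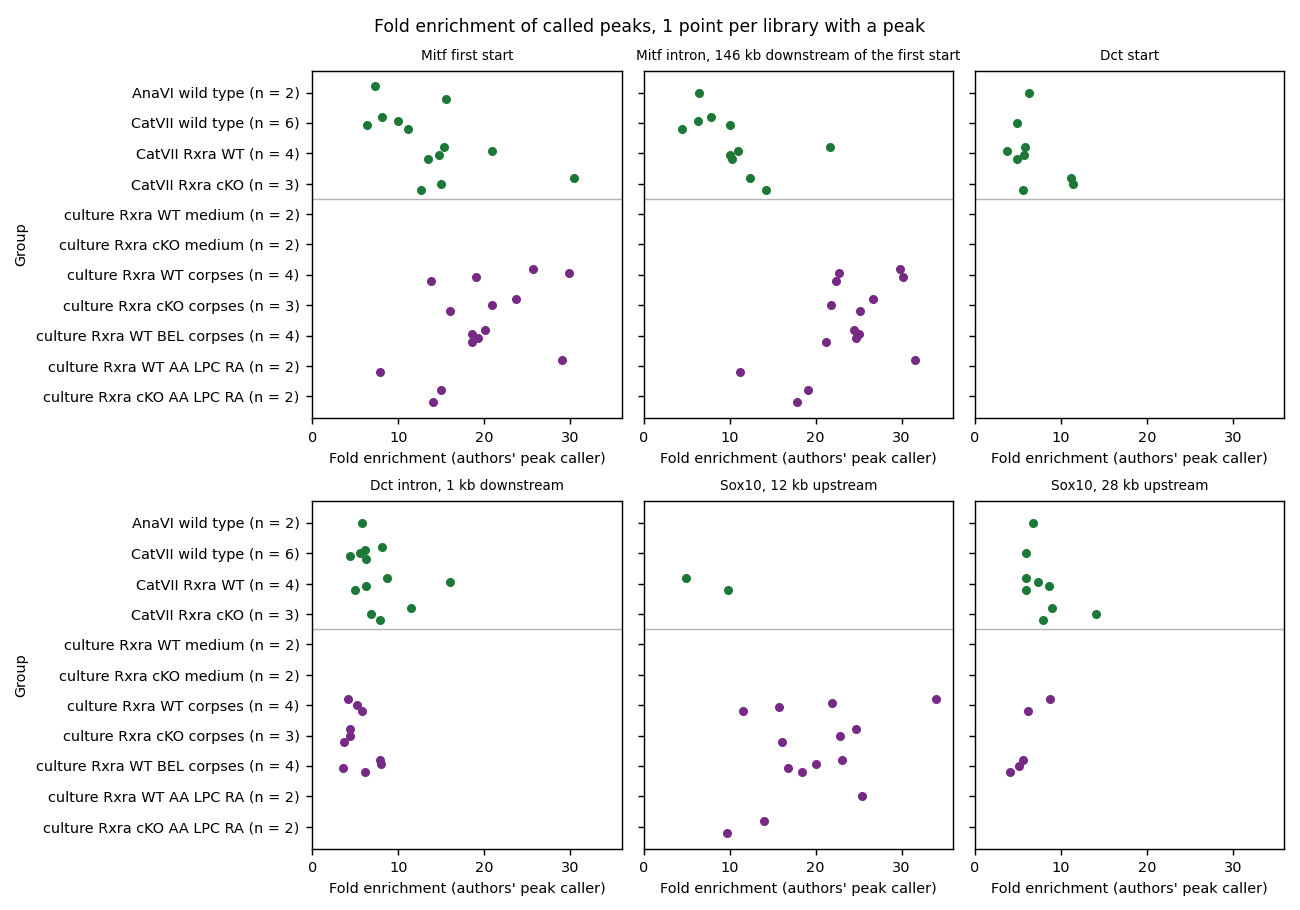
Fold enrichment of the called peak (horizontal axis, ratio over local background as deposited) at 6 sites, 1 point per library with a peak, in the 11 groups (vertical axis; in vivo above the line, cultured below). At the Mitf intron 146 kb downstream and 12 kb upstream of Sox10 the cultured corpse libraries reach 30.2 and 33.96, and at the Dct start no cultured library has a point.

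By sequence, the member sites held the searched letters about as often as the regions of the whole series did. Of the 50 sites of at least 5 libraries, 16% held the E-box letters within 200 bases, against 18.6% of the 110307 such regions of the genome. SOX letters were found in 26% against 26.2% and AP-1 letters in 26% against 26.5%. Of the 14 sites seen in culture alone, 4 held AP-1 letters, and of the 6 seen in vivo alone 0. Among all regions of at least 5 libraries the AP-1 share was 41.2% of those in culture alone and 7.11% of those in vivo alone. The Mitf intron site at 146 kb and the Sox10 site at 11.8 kb held both E-box and AP-1 letters, as the stretches above show. Upstream of the starts, the Tyr and Dct stretches each held an E-box, which 13.0% of all canonical starts had in the same length, and the Dct stretch also held SOX letters, which 18.9% had. These letters describe the windows and say nothing of binding.

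Late catagen and full anagen wild type cells were compared for the share of listed peaks that lay in the member windows. At 8223 peaks per list, the 6 CatVII libraries held 2 to 7 member peaks and the 2 AnaVI libraries 4 and 5. The share was 0.0547% ± 0.0200 (SD, n = 6) and 0.0547% ± 0.00860 (n = 2), a difference of 0.0 percentage points (exact permutation test, two-sided, p = 1, adjusted p = 1 over the 8 comparisons by Benjamini-Hochberg, smallest possible p 0.0357). Of 9 member sites in enough libraries, the Mitf site 200.65 kb downstream was present in both AnaVI libraries and no CatVII wild type library of equal length (1 of 6 among all called peaks), and no site showed the opposite. Among all called peaks the same site was listed in 4 of 4 CatVII Rxra WT and 3 of 3 CatVII Rxra cKO libraries, which this comparison leaves out. Those lists are longer, and whether the site lay among their best 8223 peaks was not computed. Whether the call holds for late catagen libraries in general was thus not tested. Over the genome 9.42% of regions were specific to AnaVI and 4.86% to CatVII by this rule, a peak in every library of a group and in none of the other.

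Deletion of Rxra in late catagen was compared at 41317 peaks per list. The 3 Rxra cKO libraries held 17 to 19 member peaks and the 4 Rxra WT libraries 18 to 30. The share was 0.0436% ± 0.00242 (n = 3) and 0.0526% ± 0.0135 (n = 4), and the groups overlapped (difference -0.00908 percentage points, exact permutation p = 0.429, adjusted p = 0.571, smallest possible p 0.0286). In lists with 2 times fewer peaks the difference was 0.00323 points, the opposite direction (exact permutation p = 0.686). Replicate 1 held the highest Rxra WT share, 0.0726%. It alone of the 4 shares the stored tag P42 with the Rxra cKO libraries. Within that tag the difference was -0.0290 points, a value that this 1 Rxra WT library sets and that has no replicate check. None of 18 member sites was specific to either genotype, where over the genome 1.83% of regions were specific to Rxra WT cells and 0.678% to their Rxra cKO counterparts. At this list length the Mitf promoter was present in all 7 libraries and the Dct promoter in 3 of the 4 Rxra WT libraries and in every Rxra cKO library.

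**Figure D4:**
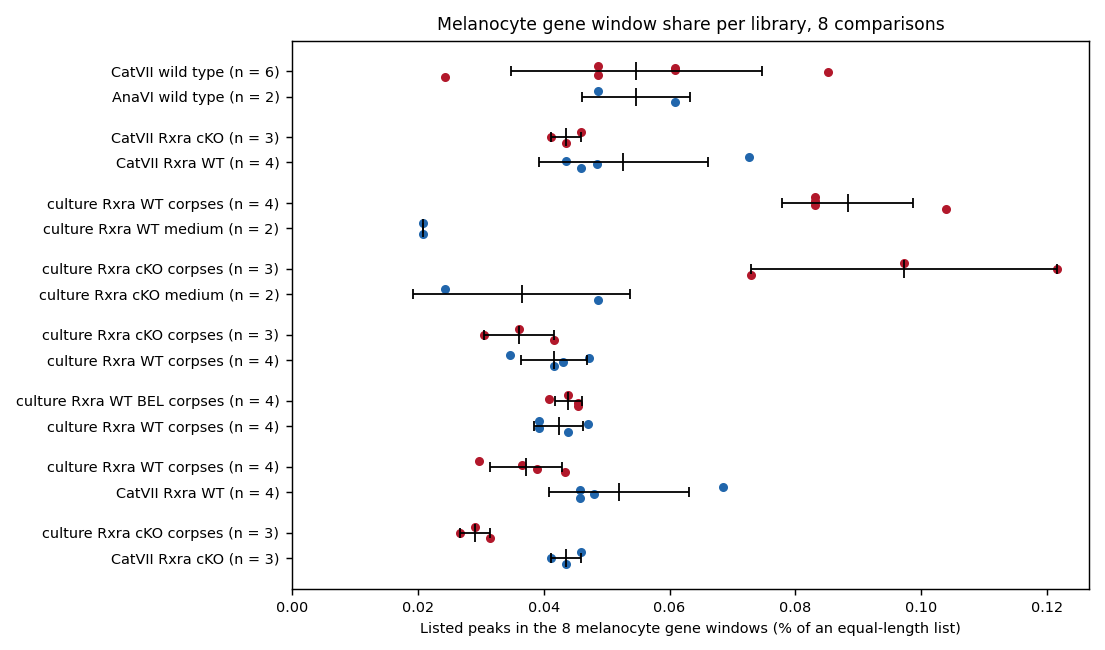
Share of listed peaks in the 8 melanocyte gene windows (horizontal axis, percent of a list of equal length within each comparison), 1 point per library, with the group mean and SD as a bar, for the 8 comparisons (vertical axis, the 2 groups of each beside each other). The corpse libraries lie above the medium libraries, and the cultured corpse libraries below the in vivo libraries of the same genotype.

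Corpses were set against medium at 4812 peaks per list in Rxra WT and at 4111 in Rxra cKO, short lists that the medium libraries impose. In Rxra WT the corpse libraries held 4 or 5 member peaks and each medium library 1, giving 0.0883% ± 0.0104 (n = 4) and 0.0208% ± 0.0 (n = 2). The groups did not overlap, with a difference of 0.0675 points (exact permutation p = 0.0667, the smallest possible, adjusted p = 0.267), which was 0.0240 points with all called peaks. In Rxra cKO the counts were 3 to 5 and 1 to 2, giving 0.0973% ± 0.0243 (n = 3) and 0.0365% ± 0.0172 (n = 2), with a difference of 0.0608 points (exact permutation p = 0.2, adjusted p = 0.4, smallest possible p 0.1). With all called peaks the Rxra cKO difference was -0.0105 points, the opposite direction (exact permutation p = 0.3). The intron site of Mitf at 146 kb was specific to corpses in both genotypes, the 76.7 kb site in Rxra WT and the Mitf first start in Rxra cKO. These were 2 of 4 and 2 of 3 member sites, beside 20.7% and 23.9% of all regions. No member site was specific to medium, against 11.7% and 12.4% of regions. Depth of the list and treatment differ together here, and their parts were not tested.

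Under corpses, Rxra cKO and Rxra WT were compared at 72047 peaks per list. The libraries held 22 to 30 and 25 to 34 member peaks, a share of 0.0361% ± 0.00555 (n = 3) and 0.0416% ± 0.00519 (n = 4). The groups overlapped (difference -0.00555 points, exact permutation p = 0.257, adjusted p = 0.411). Of 29 member sites, the region 44.8 kb upstream of Pmel, inside Ikzf4, was specific to Rxra cKO and the Mitf site at 73.6 kb, partly a repeat as given above, to Rxra WT, beside 3.69% and 1.71% of regions.

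BEL-treated and control corpses were compared in Rxra WT at 63739 peaks per list. The libraries held 26 to 29 and 25 to 30 member peaks, a share of 0.0439% ± 0.00222 (n = 4) and 0.0424% ± 0.00384 (n = 4), and the difference of 0.00157 points was within the spread (exact permutation p = 0.657, adjusted p = 0.751). The Mitf site at 73.6 kb was specific to control corpses in lists of equal length, 1 of 28 member sites beside 0.724% of regions, and none was specific to BEL-treated corpses, beside 2.24%. The same site was called in the comparison of Rxra WT with Rxra cKO under corpses, which uses the same 4 Rxra WT libraries, but among all called peaks it was also listed in 2 of the 3 Rxra cKO libraries with corpses.

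Cells with corpses in culture were compared with late catagen cells in vivo. In Rxra WT at 43758 peaks per list, the cultured libraries held 13 to 19 member peaks and the in vivo libraries 20 to 30, without overlap. The share was 0.0371% ± 0.00571 (n = 4) in culture and 0.0520% ± 0.0111 (n = 4) in vivo, lower in culture by a difference of -0.0149 points (exact permutation p = 0.0286, the smallest possible, adjusted p = 0.229). Without CatVII Rxra WT replicate 1 the difference was -0.00933 points (exact permutation p = 0.0571), and in lists with 2 times fewer peaks it was -0.00571 points (exact permutation p = 0.543). In Rxra cKO at 41317 peaks per list, the counts were 11 to 13 and 17 to 19, giving 0.0290% ± 0.00242 (n = 3) and 0.0436% ± 0.00242 (n = 3), also without overlap (difference -0.0145 points, exact permutation p = 0.1, the smallest possible, adjusted p = 0.267). With all called peaks this Rxra cKO difference was -0.00559 points (exact permutation p = 0.6) and with 10 kb upstream -0.00887 points (exact permutation p = 0.3). No adjusted p of the 8 comparisons was below 0.05.

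By site, Mitf, Sox10 and Dct each had sites specific to cultured or to in vivo cells in these lists of equal length. In Rxra WT, the Mitf sites at 27.1 and 117 kb were specific to culture, and the Mitf site at 26.2 kb and the Sox10 site 27.9 kb upstream to in vivo cells. That was 2 and 2 of 16 member sites, beside 21.3% and 13.6% of regions. Among all called peaks, the Mitf site at 117 kb was also listed in 1 of the 4 CatVII Rxra WT libraries. In Rxra cKO, the Sox10 site 11.8 kb upstream was specific to culture. The Mitf site at 200.65 kb, both Dct sites at the start and 1045 bp inside, and the Sox10 site 27.9 kb upstream were specific to in vivo cells. That was 1 and 4 of 14 member sites, beside 27.6% and 12.3% of regions. Among all called peaks, the Dct site 1045 bp inside the gene had weaker peaks in all 3 Rxra cKO libraries with corpses, and the Mitf site at 200.65 kb was listed in 2 of those 3, so their absence there holds for the lists of equal length. The Sox10 site 27.9 kb upstream was the only member site called in both genotypes, and among all called peaks it was also listed in 2 of the 4 Rxra WT libraries with corpses. The 2 genotypes share no libraries in these comparisons, whereas each shares its groups with other comparisons above.

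Other genes of the pigment pathway, from a list of 23 of which 22 were matched by symbol, varied from no promoter peak to peaks in 30 libraries. Promoters of Oca2, Slc45a2, Slc24a5 and Gpr143, which encode melanosome channels, transporters and a receptor, had no peak in any library. The endothelin receptor gene Ednrb had none either. Promoters of Myo5a and Rab38 (30 libraries each), Slc7a11 (28), Rab27a (25), Mlph (21), Trpm1 (20) and Gpnmb (17) had peaks in many. Among receptors and factors Tfap2a and Erbb3 had peaks in 30 libraries each, Lef1 in 11, Mc1r in 8 and Pax3 in 6. Lef1, an effector of Wnt signalling, had a promoter peak in 4 of 4 libraries with BEL-treated corpses and in 0 of 7 with control corpses among all called peaks, but in 2 of 4 and 0 of 4 in the Rxra WT lists of equal length. Pax3 differed likewise, in 3 of 4 and 0 of 7 among all called peaks, but in 0 of 4 and 0 of 4 at equal length. No listed pigment gene showed the opposite. The share of all promoters with such a pattern was not computed. Of all genes, 59.1% had a promoter peak in every library with BEL-treated corpses. With control corpses it was 51.4% in Rxra WT and 55.8% in Rxra cKO. The 7 control libraries pool both genotypes, whereas the BEL-treated ones are Rxra WT alone. Of the ligands, Kitl, which encodes the KIT ligand made by neighbouring cells, had a promoter peak in 26 libraries and Edn1 in 19, Edn3 and Hgf in 1 each and Pomc in 0.

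The median library had promoter peaks at 37.5% of the 8 melanocyte genes in vivo and 25% in culture, counting the Pmel start shared with Cdk2. The 11 further melanosome and enzyme genes stood at 45.5% and 63.6%, the 6 receptors and factors at 33.3% and 33.3%, and the 5 ligands and antagonists at 20% and 40%. Markers of other cells stood at 25% and 25% for 8 fibroblast genes, 14.3% and 28.6% for 7 endothelial genes and 0% and 22.2% for 9 immune genes. In vivo the range over libraries was 0% to 62.5% for fibroblast, 0% to 42.9% for endothelial and 0% to 11.1% for immune genes, and in culture 0% to 50%, 0% to 57.1% and 0% to 33.3%. Of the fibroblast markers, Pdgfra and Col1a1 had a promoter peak in 24 libraries each, Col1a2 in 6, Pdgfrb in 3, Twist2 in 2, Dcn in 1, and Col3a1 and Lum in 0. Of the endothelial markers, Tek had one in 20, Pecam1 in 14, Kdr in 9, Cdh5 in 5, Cldn5 in 4, and Tie1 and Emcn in 0. Of the immune markers, Csf1r had one in 15, of which 14 were cultured, Laptm5 in 13, of which 12 were cultured, Lyz2 and Cd52 in 2 each, and Ptprc, Cd3e, Itgam, Spi1 and Cd207 in 0. Schwann cells share the neural crest origin of melanocytes, and of the 4 markers of them given here Mbp had one in 31 libraries, Egr2 in 28, and S100b and Foxd3 in 2 each. Whether cells of these types contributed to the member sites was not tested.

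**Figure D5:**
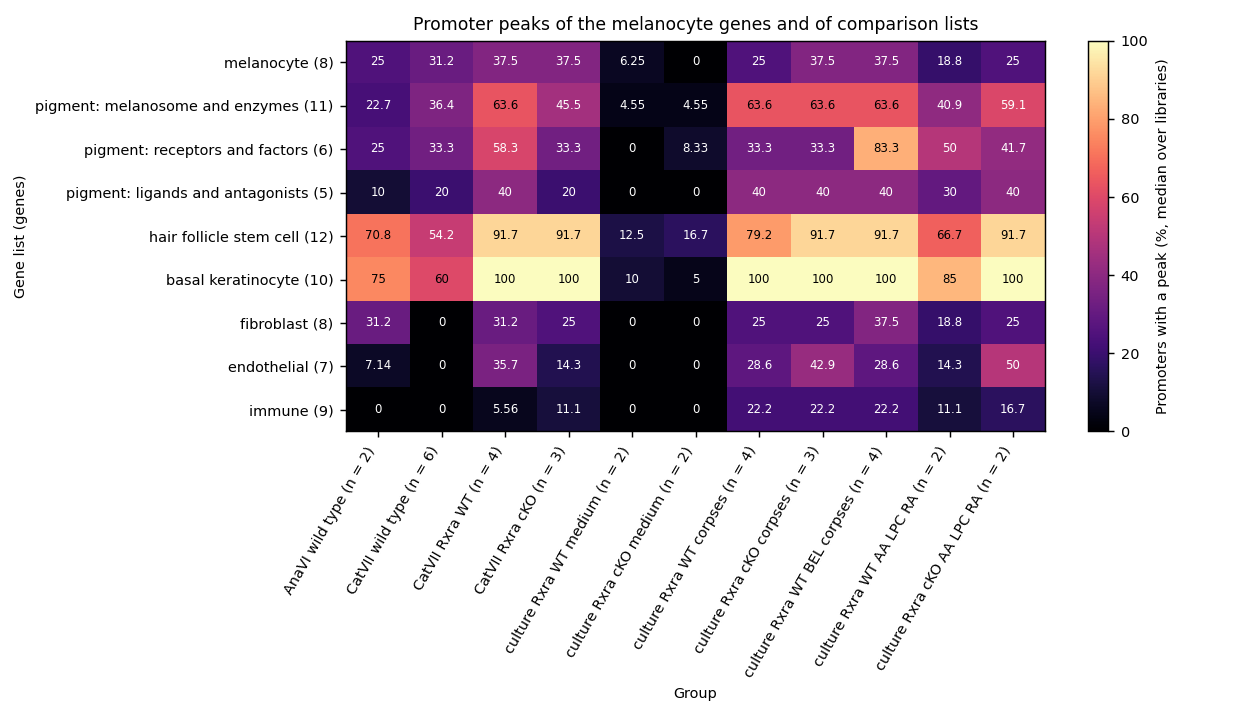
Heat map of the percentage of promoters with a called peak (colour and number, median over the libraries of a group) for the melanocyte genes, 3 lists of further pigment genes and 5 lists of cell type markers (rows, number of genes in brackets) in the 11 groups (columns). Hair follicle stem cell and basal keratinocyte lists reach 91.7% and 100% where the melanocyte list stays at or below 37.5%.

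For the 3 members with a promoter peak in 5 to 29 libraries, the genes with the most similar pattern over the 34 libraries were sought by the Jaccard index, shared over all libraries with a peak. Mitf had the same pattern as 114 genes (index 1), of which the first by symbol were 3300002I08Rik, AU022252 and Ablim1. Pmel had that of 7 genes (index 1), the first being Aida, Brox and Cdk2, its neighbour at the shared start. Dct was most like Robo1 (0.826), followed by Bace2 and Nfatc1 (0.792 each, an index that 3 genes had). The libraries differ in depth, which all genes share.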

How the data were processed

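Open chromatin was measured by ATAC-seq in 34 libraries of 11 groups, as the labels give them. Alignment to mm39 was done by the authors with BWA-MEM (version 0.7.18), duplicates were removed with SAMtools (version 1.17), and MACS3 (version 3.0.0) called peaks per replicate from paired fragments, with no control stated. The deposited lists give each peak's fold enrichment, a ratio over the local background, its -log10 p and -log10 q at the summit, and a score that is 10 times the -log10 q. No counts are given, so the depth behind a peak is unknown, and reads were not analysed here.

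Peaks on chromosomes 1 to 19, X and Y were assigned by summit to windows of 50 kb upstream to 5 kb downstream of protein-coding genes (GENCODE vM39), and peaks of all libraries sharing at least 1 bp were merged into regions. The members and all gene lists were chosen with earlier results of these data known. The rule for naming was all 8 members, their sites in at least 5 libraries, each listed pathway gene and marker of other cell types, and the 3 genes of most similar promoter pattern. The symbol Asip was not matched, and 2 markers, with the summary of the list that holds them, are not reported here. Shares in lists of equal length were compared by an exact two-sided permutation test over libraries, with Benjamini-Hochberg adjustment over 8 comparisons, and a call was made at an unadjusted p under 0.05. Comparisons share libraries: Rxra WT with corpses enters 4 of the 8. The steps were tested on simulated data and run in Python 3.11.15 with numpy 2.4.6, pandas 2.3.3 and scipy 1.17.1.

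Alternatives were all called peaks, lists with 2 times fewer peaks, 10 kb upstream windows, leaving out starts of other genes, summits within 200 bp as 1 region, each replicate left out, and a replicate block. A comparison of P42-tagged libraries alone was added after seeing the data.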

Additional observations from a re-analysis of the deposited data

Results flagged for a closer look

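In the comparison of CatVII Rxra cKO with Rxra WT, the share of listed peaks in the melanocyte windows was 0.0726% in CatVII Rxra WT replicate 1, far above the other 3 libraries of its group. The same library stood apart at 0.0686% in the comparison of Rxra WT culture with in vivo cells. It is the only one of the group with the stored tag P42. In the comparison of corpses with medium, Rxra WT replicate 4 with corpses stood apart at 0.104%, which is 5 member peaks against 4 in each of the other 3 libraries. The gap of each to its nearest neighbour exceeded Dixon's critical value for 4 samples, which chance passes in about 1 of 20 groups. That rate does not apply to the last, since with 3 equal counts any difference of 1 peak passes.

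None of 3 differences between effects passed the test. The effects in each difference were taken at unlike list lengths. Group labels were permuted within each comparison, so the test takes both effects as absent and does not test whether they are equal. The Rxra effect in vivo less that under corpses was -0.00352 points (exact permutation p = 0.815), the corpse effect in Rxra WT less that in Rxra cKO was 0.00673 points (exact permutation p = 0.833), and the culture effect in Rxra WT less that in Rxra cKO was -0.000333 points (exact permutation p = 0.981).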

How the results depend on the processing

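The lower share of melanocyte window peaks in cultured Rxra WT cells than in vivo kept its direction under every alternative run but passed the unadjusted threshold only in part. The difference was -0.0128 points with all called peaks, -0.00571 in lists with 2 times fewer peaks, -0.00628 with 10 kb upstream and -0.0126 without starts of other genes (exact permutation p from 0.0857 to 0.543). With the replicate block it was -0.0149 points (exact permutation p = 0.125, the smallest possible with 4 pairs), and the block changed no other call. Replicate numbers were not taken to pair samples, since in no comparison did every pair's deviations correlate above 0.1. All pairs were positive for BEL against control corpses (0.0326 to 0.121), for Rxra under corpses (0.0387 to 0.0651) and for corpses against medium in Rxra WT (0.0141 to 0.0330), and in no comparison of 3 or more pairs did every sample correlate best with its own number. Leaving out 1 library gave -0.0169 to -0.00933 points, with p = 0.0857 (exact permutation) without Rxra WT with corpses replicate 1 or replicate 2 and 0.0571 without CatVII Rxra WT replicate 1. The Rxra cKO difference in vivo reversed to 0.00323 points in the shorter lists, and the corpse difference in Rxra cKO reversed to -0.0105 points with all called peaks. The causes were not tested.

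In the order of the report, the shares without 1 library ranged from -0.00608 to 0.00608, -0.0121 to -0.00242, 0.0623 to 0.0693, 0.0486 to 0.0730, -0.00833 to -0.00278, 0.000523 to 0.00314, -0.0169 to -0.00933 and -0.0157 to -0.0133 points. Group-specific member sites, 1, 0, 2, 2, 2, 1, 4 and 5 in that order, ranged from 1 to 2, 0 to 2, 2 to 4, 2 to 3, 2 to 4, 1 to 3, 4 to 7 and 5 to 8. The larger moves were without AnaVI replicate 1 (2), CatVII Rxra cKO replicate 1 (2 against Rxra WT, 8 against culture), CatVII Rxra WT replicate 1 (1 against Rxra cKO, 7 against culture), Rxra WT medium replicate 3 (4), Rxra cKO with corpses replicate 1 (4), BEL replicate 1 or 3 (2 each) and Rxra WT with corpses replicate 4 (3). With all called peaks the counts were 0 for CatVII against AnaVI, 16 and 19 for corpses against medium in Rxra WT and Rxra cKO, 1 for Rxra under corpses and 9 for Rxra cKO culture. In lists with 2 times fewer peaks they were 0, 2, 1, 1, 1, 0 and 1 for the first 7 comparisons. With 10 kb upstream they were 1 for Rxra under corpses and 3 for Rxra cKO culture, and with summits within 200 bp 2 for BEL. Among P42 libraries, chosen after seeing the data, 8 sites were specific to the single Rxra WT library and 0 to Rxra cKO. Small groups and the short medium lists limit these counts, and a site under the calling threshold cannot be seen.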
